A study of Mus musculus with 6 samples.

Results

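Cyclic nucleotide phosphodiesterases are the enzymes that end cAMP and cGMP signals by hydrolysing them. In the adrenal gland cAMP carries the signal of the pituitary hormone ACTH to the steroid-producing cortex, while cGMP carries that of natriuretic peptides and nitric oxide. The enzymes differ by substrate. The products of Pde4d, Pde7b, Pde8a and Pde8b hydrolyse cAMP, that of Pde5a hydrolyses cGMP, and those of Pde1c, Pde2a, Pde3a, Pde10a and Pde11a act on both. These 10 genes of the 30406 that both gene annotations share were taken by name. They were chosen by their earlier measured levels per cell type in these data, and Pde10a also by its KO and WT levels in the zona glomerulosa, so those values are a description. The other 13 phosphodiesterase genes in the files are named only where they reached 50 CPM in a class.

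The nuclei came from whole adrenal glands of female C57BL/6 J mice aged 10 to 11 months, either wild type (WT) or with Tmem127 knocked out (KO), a gene of the endosomal and lysosomal membrane system that is mutated in some human phaeochromocytomas. Each library held 1 pair of glands, with nuclei sorted on the DNA stain DAPI. The labels give 2 KO and 3 WT libraries, and say neither which part of Tmem127 is deleted nor in which cells. A sixth library is titled WT but has KO in its genotype field, and stays unassigned. Replicate numbers follow the order of the samples, only name libraries and pair none. After filtering, 21035 nuclei remained. The deposited barcodes of a library carried between 4825169 and 43377724 UMIs (unique molecular identifiers, 1 per captured RNA molecule). Any 2 libraries shared between 2 and 9 cell barcodes. KO replicate 1 and WT replicate 1 list 32285 genes and the other libraries list 31053. Nuclei were clustered without any phosphodiesterase gene, and clusters were named "-like" from marker genes. Of the resulting classes, 12 had at least 20 nuclei in each grouped library. The name X-zone or inner cortex-like rests on 3 markers (Thrb, Cyp2f2 and Akr1d1), and the X-zone enzyme gene Akr1c18 was not among them. Cluster 4, led by Cthrc1, Sema5b and Psat1, and cluster 12, with Trpc6 and C7 among its leading genes, stayed unnamed. A level is the gene's UMIs per 1000000 UMIs (CPM) of all nuclei of that class in a library, and a ± after a mean level is the SD over the 5 grouped libraries.

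Pde2a has to be read apart from the other members, because its level followed the gene annotation. In zona glomerulosa-like nuclei it was 519 CPM in KO replicate 1 and 393 CPM in WT replicate 1, the libraries with 32285 genes. It was 11.1, 8.16, 2.97 and 5.75 CPM in KO replicate 2, WT replicates 2 and 3 and the unassigned library. In endothelial-like nuclei the values were 511 and 421 CPM against 7.40, 9.49, 1.03 and 5.52 CPM. Both genotypes are on each side of this gap. The smaller annotation also lists Gm45837 (ENSMUSG00000030653), a protein-coding model at chr7:101410886-101512819 on the plus strand, the same strand as Pde2a (ENSMUSG00000110195, chr7:101421691-101512827, mm10). The larger annotation does not list it. By GENCODE M21, 3955 exonic bases are common to both models, 64.3% of those of Pde2a and 95.6% of those of Gm45837. The transcripts Pde2a-201 and Gm45837-201 were identical over the last 1753 bases up to the stop codon. The last 60 coding bases of each are shown as the end of this identical stretch, with the stop codon in capitals. A tag from within the stretch would carry the same letters for either gene. The sequences after the stop codon, closer to the 3′ end, were not compared letter by letter. Both stop codons end at chr7:101511663, and the common exonic bases were counted by genome position over the whole of both models.

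Pde2a-201: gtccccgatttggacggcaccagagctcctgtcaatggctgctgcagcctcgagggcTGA

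Gm45837-201: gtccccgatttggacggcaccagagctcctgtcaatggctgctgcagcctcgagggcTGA

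Gm45837 itself held between 14 and 29 UMIs per library over all nuclei in the 4 libraries that list it. A library with the smaller annotation thus gave almost no UMIs to either gene, and the treatment of reads shared by both models is not stated in what was used here. The level of Pde2a was therefore read from KO replicate 1 and WT replicate 1 alone, 1 against 1, with no test.

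**Figure D1:**
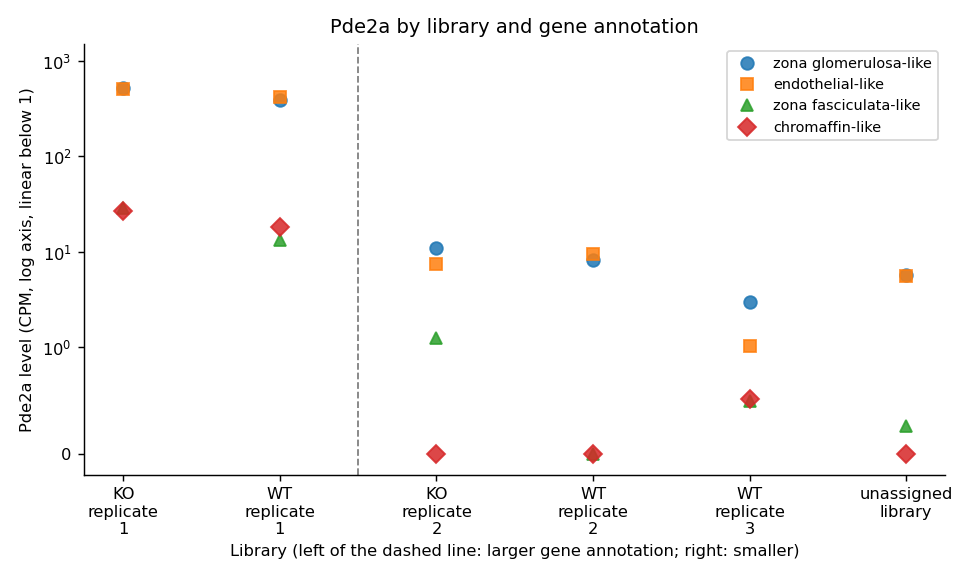
Pde2a level (CPM, log axis that is linear below 1) in each library, for 4 classes of nuclei. In zona glomerulosa-like and endothelial-like nuclei the 2 libraries left of the dashed line, counted with 32285 genes, sit between 393 and 519 CPM, and the 4 libraries to its right sit between 1.03 and 11.1 CPM.

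In those 2 libraries Pde2a, which encodes an enzyme that cGMP stimulates, stood in zona glomerulosa-like and endothelial-like nuclei far above its 28.6 and 13.2 CPM in zona fasciculata-like nuclei. Counting error alone gave exact 95% Poisson intervals of 499 to 539 CPM in the KO library and 382 to 405 CPM in the WT library for zona glomerulosa-like nuclei. To compare different genes, levels were divided by exon length or by gene span, since intronic reads may or may not have been counted. On both scales Pde2a was first of all 23 phosphodiesterase genes in zona glomerulosa-like nuclei of both libraries, at 84.4 and 63.9 CPM per kb of exons. Next came Pde7a at 42.8 CPM per kb in the KO library and Pde10a at 58.3 CPM per kb in the WT library. In all that follows Pde2a is left out of means and orders.

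The cAMP-specific Pde8b (ENSMUSG00000021684, chr13:95024454-95250336, minus strand) was lowest in the outer and highest in the inner cortex. It was 156 ± 22.2 CPM in zona glomerulosa-like nuclei, the aldosterone-producing outer zone, 782 ± 69.3 CPM in zona fasciculata-like nuclei, the glucocorticoid-producing zone, and 1195 ± 237 CPM in X-zone or inner cortex-like nuclei (SD, n = 5). The unnamed cluster 4 stood between the first pair with 285 ± 31.1 CPM. Each of the 6 libraries had these 4 classes in that order, and the ranges over the 5 grouped libraries did not overlap between any neighbours of the 4. Zona fasciculata-like nuclei ranged from 729 to 896 CPM and X-zone or inner cortex-like nuclei from 990.3 to 1601 CPM. Outside the cortex the highest class was cluster 12 with 312 ± 54.3 CPM, and chromaffin-like nuclei had 13.9 CPM.

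Its paralogue Pde8a (ENSMUSG00000025584, chr7:81213596-81334533, plus strand), also cAMP-specific, did not share this order. It was highest in endothelial-like nuclei (389 ± 62.3 CPM) and adipocyte-like nuclei (274 ± 67.0 CPM), whose ranges overlapped. In the cortex it lay between 98.7 CPM in X-zone or inner cortex-like and 162 CPM in zona glomerulosa-like nuclei. Windows from 250 bases before to 50 after each annotated start were searched on both strands for TGACG, the short site bound by cAMP response element factors, TGACGTCA, the full element that contains it, and AAGGTCA, the core recognised by the steroidogenic factor SF-1. RefSeq (GRCm38.p6) matched 20 windows of 9 members, and Pde3a had no entry. TGACG was found in 3 of the 20 windows, 1 each of Pde2a, Pde8a and Pde8b, and in 20.8% of all 32851 windows. TGACGTCA was in 0 of the 20 and 1.79% of all windows, and AAGGTCA in 0 of the 20 and 4.72%. For this paralogue pair 1 window each is shown, because their zonal patterns differ while both shown windows carry the short site, in capitals. The other Pde8b windows, at other annotated starts, lacked it. Pde8a lies at chr7:81213015-81213314 on the plus strand and Pde8b at chr13:95223001-95223300 on the minus strand.

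Pde8a: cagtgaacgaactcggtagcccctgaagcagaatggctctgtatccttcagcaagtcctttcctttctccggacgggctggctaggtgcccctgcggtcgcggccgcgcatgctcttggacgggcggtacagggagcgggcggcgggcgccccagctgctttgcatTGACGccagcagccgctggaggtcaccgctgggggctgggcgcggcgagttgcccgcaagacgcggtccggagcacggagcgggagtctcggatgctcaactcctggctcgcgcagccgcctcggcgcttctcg

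Pde8b: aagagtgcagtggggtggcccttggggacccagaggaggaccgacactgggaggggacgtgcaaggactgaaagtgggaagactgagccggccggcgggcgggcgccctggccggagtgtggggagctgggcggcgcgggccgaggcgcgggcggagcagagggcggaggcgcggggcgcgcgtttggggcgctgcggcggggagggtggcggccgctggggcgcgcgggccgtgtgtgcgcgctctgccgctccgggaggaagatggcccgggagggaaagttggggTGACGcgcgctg

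These are matches of letters in a window, not binding sites. Among all phosphodiesterase genes Pde8b came first per kb of exons in zona fasciculata-like (133 CPM per kb) and X-zone or inner cortex-like nuclei (203 CPM per kb), and Pde7a, another cAMP-specific enzyme gene, came second with 118 and 76.2 CPM per kb. By gene span the order of Pde7a and Pde8b was the opposite in both classes.

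Pde7b (ENSMUSG00000019990, chr10:20398004-20725078, minus strand), cAMP-specific, was high in glia, stroma, endothelium and fat and low in the cortex. Schwann or sustentacular-like nuclei, the glia of the medulla, had 2529 ± 553 CPM, split into 2061 and 2923 CPM for KO against 1969, 2439 and 3255 CPM for WT. All of these values lie above the highest value of any other class, 1535 CPM in cluster 12. Below came cluster 12 (1145 ± 280 CPM), adipocyte-like (969.9 ± 312 CPM), endothelial-like (959 ± 187 CPM), macrophage-like (680.2 ± 289 CPM) and capsule or fibroblast-like nuclei (597 ± 124 CPM), each overlapping the next. The 3 cortical classes and cluster 4 had at most 10.5 CPM. Thinned to 1000 UMIs a nucleus, 83.4% ± 10.3 (SD, n = 5) of the Schwann or sustentacular-like nuclei held a Pde7b UMI. The share was 0.77% in zona glomerulosa-like nuclei, and the part of free RNA in it was not tested.

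Pde4d (ENSMUSG00000021699, chr13:108449948-109953461, plus strand), of the cAMP-specific family that rolipram inhibits, was highest in adipocyte-like nuclei at 1680.4 ± 428 CPM. Endothelial-like nuclei had 763 ± 124 CPM and chromaffin-like nuclei 662 ± 197 CPM, which overlapped, and Schwann or sustentacular-like nuclei had 376 ± 159 CPM. In the cortical classes and cluster 4 it stood between 9.30 and 13.9 CPM. Within the endothelial-like class, cluster 17, led by Scin, Prom1 and Bmx, had 2067 ± 607 CPM, against 614 ± 113 CPM in the large cluster 1. Adipocyte-like nuclei had Pde3b, the insulin-responsive phosphodiesterase gene of fat, as their first gene per kb of exons at 327 CPM per kb. Pde4d was their second at 139.96 CPM per kb. By gene span Pde3b was again first, Pde7b came second at 297 CPM per 100 kb, and Pde4d was not among the first 3.

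Pde3a (ENSMUSG00000041741, chr6:141249269-141507448, plus strand), whose product hydrolyses cAMP and is inhibited by cGMP, was highest in cluster 12 and in the medulla. Cluster 12, which has the vascular mural genes Pdgfrb, Abcc9 and Myh11 among its leading genes, had 2009.6 ± 475 CPM. Chromaffin-like nuclei, the catecholamine cells of the medulla, had 1756 ± 344 CPM, split into 1403 and 1686 CPM for KO, 1712, 1649 and 2332 CPM for WT, and 2150.2 CPM for the library without a group. The ranges of these 2 classes overlapped, and both lay above the next class, capsule or fibroblast-like nuclei with 397 ± 92.6 CPM. Of all Pde3a UMIs in the grouped libraries, 73.8% lay in chromaffin-like nuclei. Within the capsule or fibroblast-like class the Rspo3 cluster, cluster 10, had 1257 ± 335 CPM. The cortical classes and cluster 4 had at most 8.15 CPM. After thinning, 72.7% ± 7.01 of chromaffin-like nuclei held a Pde3a UMI, against 0.82% in zona glomerulosa-like nuclei.

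Pde5a (ENSMUSG00000053965, chr3:122728947-122859374, plus strand), the cGMP-specific target of sildenafil, was low and spread over cortex and stroma. Capsule or fibroblast-like nuclei had 189 ± 30.9 CPM, zona fasciculata-like 174 ± 80.0 CPM, cluster 12 148 ± 51.1 CPM and zona glomerulosa-like nuclei 109.5 ± 9.13 CPM. These ranges overlapped from each class to the next. Chromaffin-like nuclei had 11.2 CPM. In the larger annotation the antisense gene 4930447N08Rik is listed at this locus, so the 2 annotations can differ for Pde5a as well.

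Pde1c and Pde11a were the least abundant of the members. Pde1c (ENSMUSG00000004347, chr6:56069804-56569103, minus strand), of the calcium and calmodulin-stimulated family, was highest in Schwann or sustentacular-like (163 ± 103 CPM) and T or NK-like nuclei (113 ± 60.8 CPM), which overlapped. Pde11a (ENSMUSG00000075270, chr2:75989141-76338774, minus strand) is known from human adrenocortical hyperplasia, in which PDE11A is mutated in some families. Here its level in the cortical classes and cluster 4 was at most 1.45 CPM. In T or NK-like nuclei it was 117 and 145 CPM in KO, 104, 93.6 and 76.2 CPM in WT, with 87.8 CPM in the unassigned library, which overlapped with no other class. These values rest on 4 to 27 UMIs a library, and after thinning 6.82% ± 5.20 of T or NK-like nuclei held a UMI against 0.14% in zona fasciculata-like nuclei. Pde11a was the one member at least 4 times higher in 1 class than in each of the others. The genes whose class pattern was most like it, by Pearson's r of log2(CPM + 1) over 12 classes among 7615 genes with 50 CPM in a class, were Styk1 (r = 0.96), Bcl11b (r = 0.96), a T cell transcription factor, and Klre1 (r = 0.95), an NK cell receptor gene.

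**Figure D2:**
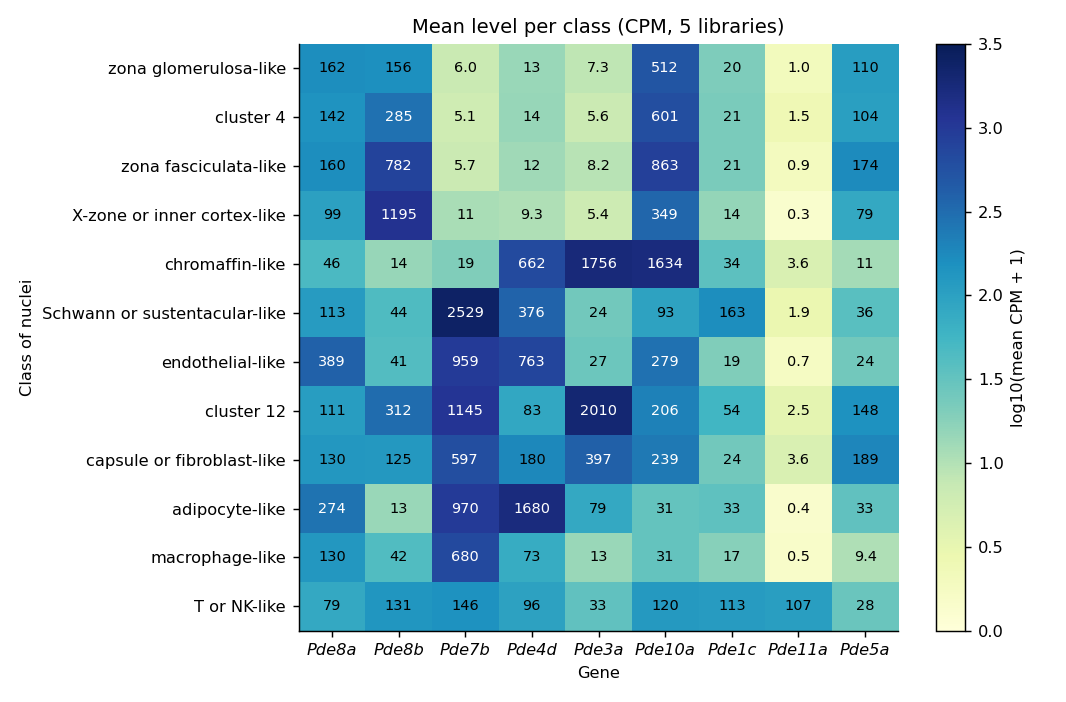
Mean level in CPM over the 5 grouped libraries for 9 members (columns) in the 12 classes of nuclei (rows), with colour on a log10(CPM + 1) scale. The 3 cortical classes and cluster 4 hold Pde10a and Pde8b and almost no Pde7b, Pde4d or Pde3a, while Pde3a and Pde10a stand together in chromaffin-like nuclei at 1756 and 1634 CPM.

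Pde10a (ENSMUSG00000023868, chr17:8525372-8986648, plus strand), whose product hydrolyses both nucleotides and is best known from the striatum, was highest in the medulla. Chromaffin-like nuclei had 1634 ± 699.6 CPM, zona fasciculata-like nuclei 863 ± 743 CPM, cluster 4 601 ± 382 CPM, zona glomerulosa-like nuclei 512 ± 406 CPM and X-zone or inner cortex-like nuclei 349 ± 282 CPM. Each of these ranges overlapped the next. These means mix genotypes, and over the 3 WT libraries alone the zona glomerulosa-like mean, 766 ± 298 CPM (SD, n = 3), was above that of cluster 4, 741 ± 467 CPM, and below that of zona fasciculata-like nuclei, 1097 ± 947 CPM, with overlapping ranges. In WT replicates 1 and 2 the zona glomerulosa-like level was above the zona fasciculata-like one. Endothelial-like nuclei varied far less, 279 ± 45.4 CPM. After thinning, 56.0% of chromaffin-like, 42.3% of zona fasciculata-like and 22.6% of zona glomerulosa-like nuclei held a Pde10a UMI. The mean share was 1.73% in macrophage-like nuclei, and the part of free RNA in it was not tested. The median depth over libraries ran from 872 to 4711 UMIs in macrophage-like nuclei and from 1732 to 10895 in zona glomerulosa-like nuclei. The genes with the most similar class pattern were Btrc, Rph3al and Ccdc149, each at r = 0.94 over the 12 classes. In bulk sums of this kind fewer expressing nuclei and less RNA per nucleus cannot be told apart from the level alone.

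Much of the spread of Pde10a lay between WT libraries. In zona fasciculata-like nuclei WT replicate 3 had 2171 CPM while WT replicates 1 and 2 had 736 and 383 CPM. The KO libraries had 553 and 471 CPM, between those 2, and the unassigned library had 1292 CPM. WT replicate 3 was also the highest grouped library in cluster 4 (1230.4 CPM) and in X-zone or inner cortex-like nuclei (848 CPM), but it was the lowest WT library in zona glomerulosa-like nuclei.

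Pde10a in zona glomerulosa-like nuclei is the value for which the gene was chosen, and is given as a description. KO libraries had 131 and 134 CPM, WT replicates 1, 2 and 3 had 749, 1072 and 476 CPM, and the unassigned library had 1001 CPM. The KO values lie close together and below each WT value, so the groups did not overlap. Exact 95% Poisson intervals, which cover counting error only, were 121 to 141 and 112 to 158 CPM in the KO libraries and 455 to 498 CPM in the lowest WT library. The log2 fold of KO over WT from edgeR's quasi-likelihood model, with the annotation as a term, was -2.54 ± 0.28 (SE, n = 2 and 3). Within the larger annotation the pair was 131 against 749 CPM, and within the smaller 134 against 1072 and 476 CPM. In this class 0.355% of 11820 genes were called by that model at a Benjamini-Hochberg adjusted p under 0.05, Pde10a among them, and since the rule used this contrast nothing is read from that call.

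The share of nuclei with a Pde10a UMI after thinning in this class was 9.26% and 11.3% in KO against 28.5%, 33.8% and 30.3% in WT. The KO shares lay above the 1.73% mean of macrophage-like nuclei, where free RNA was not measured, and below each WT share. This class joins 2 clusters, and the gap was wider in the one with more markers. In cluster 2, led by Vsnl1, Agtr1b and Cyp11b2, the aldosterone synthase gene, KO libraries had 153 and 134 CPM, WT libraries 1210.4, 1622 and 619 CPM and the unassigned library 1306 CPM, a log2 fold of -3.02 ± 0.32. Without thinning, 44.7% and 22.1% of the cluster 2 nuclei in KO and 79.0%, 71.2% and 82.3% in WT held a UMI, at median depths of 7667 and 2094 UMIs in KO and 11914, 3088 and 6979 in WT. The highest count in 1 nucleus was 20 and 8 UMIs in KO and 150, 58 and 55 in WT. In cluster 3, led by Adgrv1, Oca2 and Tnc, the values were 106 and 133 CPM in KO, 179, 278 and 302 CPM in WT, with 615 CPM in the unassigned library, a log2 fold of -0.92 ± 0.16. The fold of the class minus that of zona fasciculata-like nuclei, fitted as an interaction, was -1.77 ± 0.76 for Pde10a, and 0% of 12864 genes were called in that fit. At an unadjusted p under 0.05 that fit had 321 genes. Without WT replicate 3, the library with the high zona fasciculata-like value, the Pde10a interaction was -2.60 ± 0.17. That fit has 1 residual degree of freedom and called 0.864% of 12385 genes, so its SE carries little weight. The library was singled out after its values were seen.

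**Figure D3:**
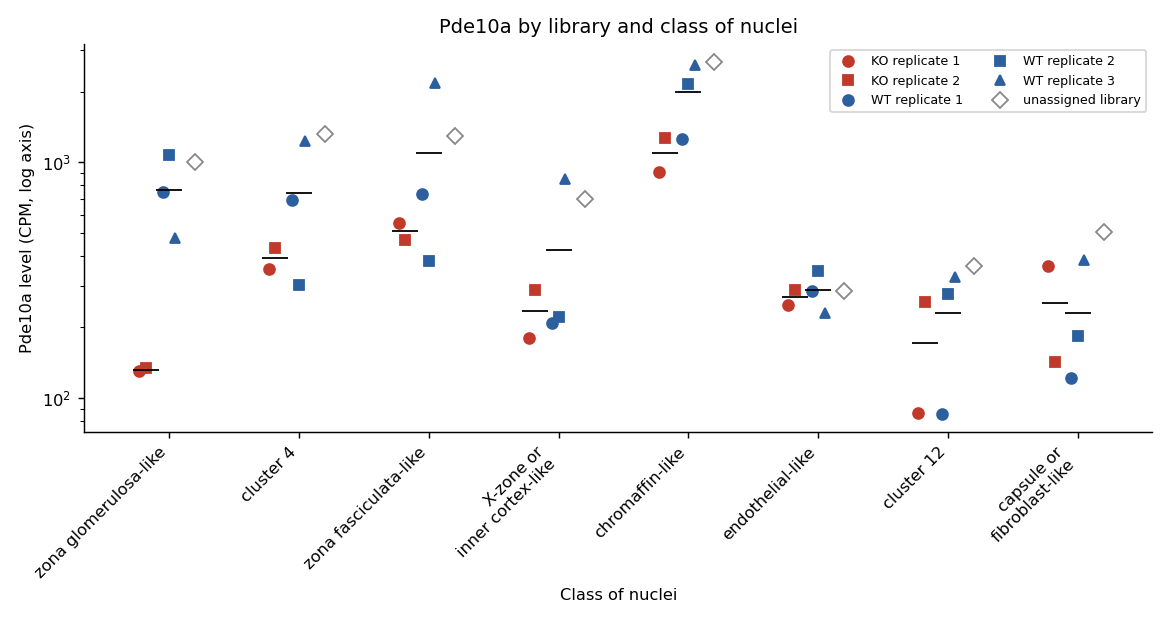
Pde10a level (CPM, log axis) in each library for the 8 classes of nuclei in which every library exceeded 10 CPM. Black bars are group means. The KO libraries (red) lie below all WT libraries (blue) in zona glomerulosa-like nuclei, at 131 and 134 CPM, and among the WT libraries in zona fasciculata-like and endothelial-like nuclei.

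Other values moved with the groups in zona glomerulosa-like nuclei. The summed level of the 14 chromaffin markers was 178 to 199 CPM in KO and 75.7 to 152 CPM in WT. None of these markers was at 0, and for 5 of the 14 the lower KO value exceeded the highest WT value. The 12 zona fasciculata markers summed to 6180 to 6211 CPM in KO and 5121 to 5644 CPM in WT, and the 15 zona glomerulosa markers to 8977 to 9218 against 9331 to 10570 CPM. The T or NK sum was higher in KO as well, 412 to 422 against 325 to 339 CPM. The adipocyte sum was 50.3 to 53.1 CPM in KO against 20.05 to 45.9 CPM in WT. In both KO libraries 2 of 12 zona fasciculata, 2 of 11 T or NK and 1 of 10 adipocyte markers exceeded every WT value. Below every WT value were 3 of 15 zona glomerulosa markers and 1 adipocyte marker, while 1 zona glomerulosa marker was above. The sums of the other 14 lists overlapped between the groups. Gm42418, a locus that overlaps ribosomal RNA sequence, stood at 14927 and 11736 CPM in KO against 5816, 7159 and 3538 CPM in WT, and its KO values were above its WT values in each of the 12 classes. Chromaffin-like and zona fasciculata-like nuclei had more Pde10a in each KO library than the zona glomerulosa-like nuclei had. The part of these values in the Pde10a difference was not tested.

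In chromaffin-like nuclei Pde10a was 915 and 1268 CPM in KO, 1256, 2149 and 2582 CPM in WT, with 2679.9 CPM in the unassigned library. The groups overlapped by KO replicate 2 and WT replicate 1, and the log2 fold was -0.73 ± 0.18 (adjusted p = 0.660 by edgeR's quasi-likelihood test). The model called 0% of 11044 genes in this class, with 580 genes at an unadjusted p under 0.05 and 11 called by DESeq2. Without WT replicate 3 the fold was -0.63, in a fit with 1 residual degree of freedom that called 0.991% of 10494 genes. Pde10a was among them, at an adjusted p of 8.35e-07 by edgeR, which carries little weight. The class joins 2 large clusters in which Pde10a went opposite ways. In cluster 7, led by Olfm3 and Slc6a4 and positive for the adrenaline enzyme gene Pnmt, KO had 724 and 971 CPM and WT had 1447, 2543 and 3025 CPM, a log2 fold of -1.31 ± 0.20. The unassigned library had 2993 CPM there. In cluster 14, led by Lrrtm4, Dach2 and Lix1 and without Pnmt among its markers, KO had 1355 and 2408 CPM and WT had 842, 853 and 474 CPM, a log2 fold of 1.38 ± 0.27. The unassigned library had 1497 CPM. The KO libraries lay below every WT library in cluster 7 and above every WT library in cluster 14. Cluster 14 held 40 to 96 nuclei a grouped library, and its Pde10a UMIs were concentrated, the top 10% of nuclei holding 46.8% to 68.6% of them against 28.9% to 49.8% in cluster 7. These clusters were singled out after their values were seen, so no test is given. In chromaffin-like nuclei the 15 zona glomerulosa markers summed to 493 to 576 CPM in KO and 384 to 469.8 CPM in WT. Of these markers, 7 had KO values above all WT values. The summed levels of the macrophage, pericyte and kidney tubule lists were also higher in KO, without overlap. Taken singly, only 2 of 11 macrophage, 1 of 12 pericyte and 1 of 7 kidney tubule markers had such a gap. The kidney tubule sum was 2.88 CPM in KO replicate 2, where 3 UMIs are worth 4.32 CPM. Gm42418 was at 12339 and 9722 CPM in KO against 5372, 5554 and 2709 CPM in WT. Their part was not tested.

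**Figure D4:**
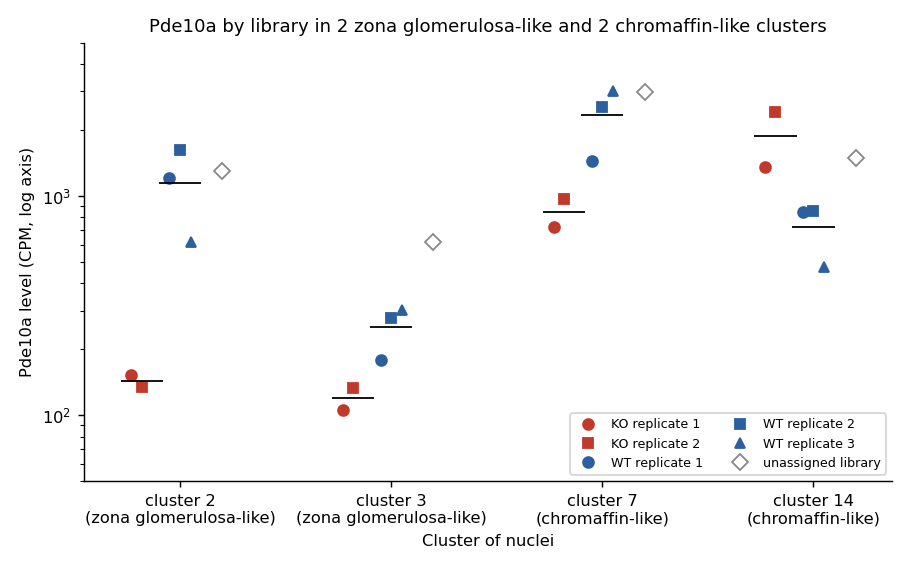
Pde10a level (CPM, log axis) in each library for the 2 clusters of the zona glomerulosa-like class and the 2 large clusters of the chromaffin-like class, with group means as black bars. KO libraries (red) lie below the WT libraries (blue) in clusters 2, 3 and 7 and above them in cluster 14, where they stand at 1355 and 2408 CPM.

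Outside zona glomerulosa-like nuclei no member passed. Over the other 11 classes 76 pairs of a member and a class could be tested, of which 0 were called by edgeR's quasi-likelihood method, with p adjusted by Benjamini-Hochberg over all genes, and 0 by DESeq2. At an unadjusted p under 0.05 there were 16 pairs, 8 higher and 8 lower in KO, or 21.1% of the 76, against 4.38% of the 86796 pairs over all genes in those classes. The members were chosen with these data in view, so this share is a description. The share of all genes called was 0.58% in T or NK-like, 0.253% in adipocyte-like, 0.147% in macrophage-like, 0.0193% in capsule or fibroblast-like and 0.00949% in endothelial-like nuclei. It was 0% in zona fasciculata-like, X-zone or inner cortex-like and Schwann or sustentacular-like nuclei and in clusters 4 and 12. In all nuclei summed, Pde10a had 365 and 406 CPM in KO against 639, 718 and 1089 CPM in WT, a log2 fold of -1.05 ± 0.20 with an adjusted p of 0.335. There 0% of 16582 genes were called, with 1161 at an unadjusted p under 0.05. DESeq2 called 56 genes, Pde10a among them at -1.05 (adjusted p = 0.000569). Without WT replicate 3 the edgeR fold was -0.87 with an adjusted p of 0.00512. That fit has 1 residual degree of freedom and called 0.524% of 15835 genes.

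Single libraries decided other Pde10a values. In capsule or fibroblast-like nuclei it was 363 and 142 CPM in KO against 121, 184 and 385 CPM in WT, a log2 fold of 0.18 ± 0.46. With KO replicate 1 or WT replicate 1 left out, which leaves only the smaller annotation to compare the genotypes, the fold was -1.02 ± 0.28 (adjusted p = 0.0410 by edgeR) without the WT library and -1.03 ± 0.28 (adjusted p = 0.0517) without the KO library. With KO replicate 2 left out, which leaves 1 KO and 1 WT library of the larger annotation, it was 1.51 ± 0.30 (adjusted p = 0.00129). The direction thus differed between the annotations. The fit without WT replicate 1 called 0.539% of 9456 genes. Each fit without a library has 1 residual degree of freedom, and a lone KO library is assumed to vary like the WT libraries, so these p-values carry little weight. In cluster 4 Pde10a was 352 and 432 CPM in KO against 690.2, 301 and 1230.4 CPM in WT, a log2 fold of -0.88 ± 0.39. Without WT replicate 2 the fold became -1.20 ± 0.23 (adjusted p = 6.65e-05 by edgeR), in a fit that called 0.537% of 10049 genes. In zona fasciculata-like nuclei the log2 fold was -1.05 ± 0.60. In T or NK-like nuclei it was -2.40 ± 0.88 (adjusted p = 0.516 by edgeR), near the -2.54 of zona glomerulosa-like nuclei. The T or NK-like level was low, 120 ± 130 CPM, with grouped libraries from 0 to 328 CPM. There 1 UMI was worth 36.2 CPM in KO replicate 2. Both KO libraries lay below every WT library in 2 of the 11 classes that could test Pde10a, zona glomerulosa-like nuclei among them. The share of all genes with such a gap was not counted, so this count is a description.

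Pde1c had the most classes with KO above WT. Its groups did not overlap, with KO higher, in 3 of the 11 classes that could test it, the chromaffin-like, zona glomerulosa-like and X-zone or inner cortex-like classes. The log2 fold was positive in each of the 11, from 0.27 in Schwann or sustentacular-like to 1.76 in X-zone or inner cortex-like nuclei. These classes come from the same libraries, and the share of all genes with such a pattern was not counted. Both counts are therefore a description. In all nuclei summed Pde1c was 31.7 and 38.1 CPM in KO against 17.1, 27.7 and 10.1 CPM in WT. The log2 fold there was 0.92 ± 0.37 (adjusted p = 0.707 by edgeR's quasi-likelihood test). In chromaffin-like nuclei it was 45.8 and 54.7 CPM in KO against 18.3, 37.2 and 16.0 CPM in WT, a log2 fold of 1.21 ± 0.33 (adjusted p = 0.788). In zona glomerulosa-like nuclei it was 26.2 and 30.1 CPM in KO against 13.8, 23.4 and 5.44 CPM in WT, a log2 fold of 1.04 ± 0.42 (adjusted p = 0.378). WT replicate 3 was the lowest grouped library in both, and the unassigned library had 16.8 and 4.05 CPM. Leaving out WT replicate 2 gave Pde1c a call in zona glomerulosa-like nuclei (1.41 ± 0.29, adjusted p = 0.000155) and in endothelial-like nuclei (1.89 ± 0.38, adjusted p = 0.0295). Leaving out WT replicate 3 gave one in chromaffin-like nuclei (1.00 ± 0.26, adjusted p = 0.0157). Those fits called 3.33% of 11715, 0.301% of 10297 and 0.991% of 10494 genes, in the same order. The main fits of these classes called 0.355%, 0.00949% and 0%. Each fit without a library has 1 residual degree of freedom, so these calls carry little weight.

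Pde5a had the largest folds of opposite sign. In adipocyte-like nuclei the log2 fold was 2.31 ± 0.55 (adjusted p = 0.139), in chromaffin-like nuclei -1.65 ± 0.43 (adjusted p = 0.747), and in zona glomerulosa-like nuclei 0.00 ± 0.14. Its mean level was 32.8 CPM in adipocyte-like and 11.2 CPM in chromaffin-like nuclei. Pde8a in X-zone or inner cortex-like nuclei was 50.7 and 50.9 CPM in KO against 92.3, 125 and 175 CPM in WT, a log2 fold of -1.15 ± 0.34 (adjusted p = 1.00). Pde8b, the member with the steepest zonal order, had log2 folds of 0.28 ± 0.14, 0.07 ± 0.23 and 0.37 ± 0.24 in zona glomerulosa-like, zona fasciculata-like and X-zone or inner cortex-like nuclei. Its zona glomerulosa-like levels were 177 and 171 CPM in KO against 134, 129 and 168 CPM in WT, which did not overlap (adjusted p = 0.477). Pde7b in macrophage-like nuclei had a log2 fold of 0.71 ± 0.23 (adjusted p = 0.728). Without WT replicate 3 it was 0.98 ± 0.21 (adjusted p = 0.0251 by edgeR). That fit has 1 residual degree of freedom and called 0.269% of 5212 genes. Pde3a in chromaffin-like nuclei and Pde4d in adipocyte-like nuclei, where those genes are abundant, had -0.28 ± 0.18 and -0.26 ± 0.32. For Pde2a the only pair that can be compared, KO replicate 1 and WT replicate 1, was 519 against 393 CPM in zona glomerulosa-like and 511 against 421 CPM in endothelial-like nuclei, a difference with no replicate check.

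**Figure D5:**
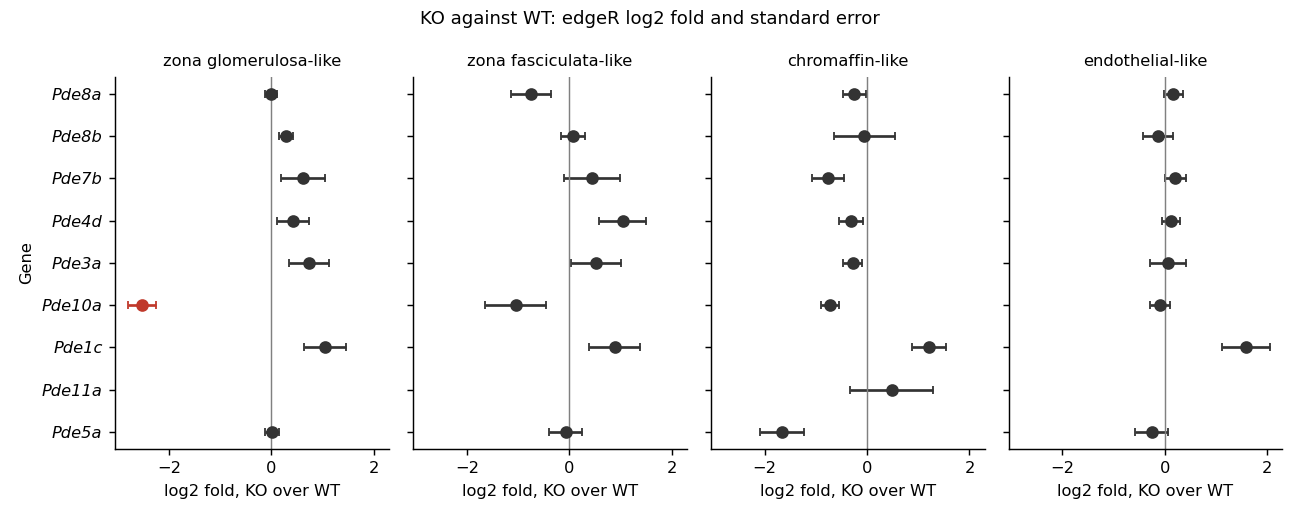
Log2 fold of KO over WT (x axis) with its standard error for 9 members in 4 classes of nuclei, from edgeR's quasi-likelihood model, with a missing point where a gene had too few counts. Red marks Pde10a in zona glomerulosa-like nuclei at -2.54, the value it was chosen for, and the other folds in that class lie between -0.01 and 1.04.

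The genes that make, sense and answer cyclic nucleotides were counted beside the members. In zona glomerulosa-like nuclei 0 of 7 adenylyl cyclases, 0 of 4 guanylyl cyclases, 0 of 11 cAMP and cGMP effectors, 0 of 17 cAMP response factors and anchors, 0 of 3 receptors that raise or lower cAMP and 0 of 5 other phosphodiesterases were called by edgeR's quasi-likelihood test. The share of all genes called in this class was 0.355%, so a count of 0 in lists this short says little about them. At an unadjusted p under 0.05 there were 2, 0, 2, 2, 1 and 0 genes, in a class where 11.3% of all genes had such a p. The median log2 folds were 0.07, 0.10, -0.13, -0.01, 0.76 and 0.04, and that of all 11820 genes was 0.03. In the 12 classes together none of the genes of these 6 lists was called, and the share of all genes called ran from 0% to 0.58% by class. The number of class pairs at an unadjusted p under 0.05 was 9 of 56 for the adenylyl cyclases, 1 of 35 for the guanylyl cyclases, 9 of 101 for the effectors, 10 of 184 for the response factors and anchors, 8 of 38 for the receptors and 3 of 49 for the other phosphodiesterases, and over all genes it was 5135 of 98616, or 5.21%.

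Of those other phosphodiesterases, 5 reached 50 CPM in a class. Pde7a had 1067 ± 234 CPM in T or NK-like, 918 ± 84.0 CPM in zona fasciculata-like, 761 ± 159 CPM in cluster 4, 590.4 ± 139 CPM in X-zone or inner cortex-like and 309.6 ± 40.3 CPM in zona glomerulosa-like nuclei. Pde3b had 2981 ± 575 CPM in adipocyte-like, 936 ± 160 CPM in T or NK-like and 355 ± 94.6 CPM in macrophage-like nuclei. Pde4b, a cAMP-specific relative of Pde4d, had 655 ± 276 CPM in chromaffin-like, 382 ± 207 CPM in Schwann or sustentacular-like and 357 ± 31.3 CPM in endothelial-like nuclei. Pde1a, a relative of Pde1c, had 342 ± 164 CPM in adipocyte-like nuclei and 327 ± 99.2 CPM in cluster 12. Pde4a reached 106 ± 27.6 CPM in cluster 12. Per kb of exons Pde7a was first in T or NK-like nuclei (138 CPM per kb) and cluster 4 (98.2 CPM per kb), Pde3a was first in cluster 12 (158 CPM per kb) and chromaffin-like nuclei (138 CPM per kb), Pde8a in endothelial-like nuclei (96.1 CPM per kb) and Pde7b in Schwann or sustentacular-like (203 CPM per kb), macrophage-like (54.7 CPM per kb) and capsule or fibroblast-like nuclei (48.0 CPM per kb). By gene span Pde3b was first in macrophage-like nuclei. In endothelial-like nuclei Pde2a stood above Pde8a by gene span in both libraries where it can be counted, at 561 against 342 CPM per 100 kb in KO replicate 1 and 462 against 353 CPM per 100 kb in WT replicate 1.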

How the data were processed

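The authors deposited raw UMI counts from 3′ droplet libraries of sorted nuclei. The submitters' processing notes name Cell Ranger, Seurat and the mm10 build. Versions 4.0.0 (KO replicate 1 and WT replicate 1) and 3.1.0 (the others) stand in the file headers. The counting of intronic reads is not stated in what was used here. Groups came from the labels. A library with contradictory labels joined only the clustering. Nothing in the labels says more about replicates than 1 pair of glands each, so p-values measure the spread between these libraries.

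Barcodes under 300 genes or at 5% mitochondrial UMIs or more were removed (48 of 21724), as were 641 marked by scrublet in scanpy 1.11.5 at 0.8% per 1000 barcodes. Nuclei were clustered on 2000 variable genes without phosphodiesterases (30 components, Harmony in numpy, 20 neighbours, Leiden resolution 0.8, 26 clusters), and a name needed 3 of a list's markers at a log2 fold of 1 and a share of 10%. A cluster was left unnamed where its leading genes went against the name. For each library and class the counts were summed, and tested with edgeR 4.0.16 (TMM, filterByExpr, glmQLFit, glmQLFTest, terms for annotation and genotype, two-sided, Benjamini-Hochberg over all genes at 0.05), after tests on simulated data. The interaction used the library as a block. DESeq2 1.42.0 was an alternative. The sums of a library and class held between 27600 UMIs (T or NK-like) and 10918292 UMIs (zona glomerulosa-like). A count of 3 UMIs, the limit that a count of 0 allows, is worth up to 109 CPM in T or NK-like, 93.3 CPM in Schwann or sustentacular-like and 3.02 CPM in zona glomerulosa-like nuclei. Intervals cover counting error only. Thinning to 1000 UMIs left out 62 of 3225 and 970 of 2802 KO nuclei and 86 of 4476, 698 of 3286 and 117 of 3534 WT nuclei.

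The members and lists were chosen with earlier results of these data known. Named are the 10 members, other phosphodiesterases with 50 CPM in a class and listed cyclic nucleotide genes that pass a test, of which there were none. Likeness gives the 3 genes with the highest Pearson correlation for Pde10a and for a member 4 times higher in 1 class than in each other. Gene positions are from GENCODE M21 and promoter windows from RefSeq GRCm38.p6.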

Additional observations from a re-analysis of the deposited data

Results flagged for a closer look

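These pairs are listed because every KO library lay above every WT library in one kind of nuclei and below every WT library in another. They came from a search over the classes that could test each member, and over clusters 7 and 14 for Pde10a. Where several classes met the rule, those with the most extreme folds are shown. The share of all genes that meet this rule was not counted, so the list does not set the members apart from other genes. None of these differences was itself tested, and no member passed the KO against WT test in any of the classes named. The classes with few nuclei and low counts are among them, so 1 or 2 UMIs can decide a library's value there. The log2 fold of Pde10a was 1.38 in chromaffin-like cluster 14 and -1.31 in chromaffin-like cluster 7, a difference of 2.70. For Pde5a it was 2.31 in adipocyte-like and -1.65 in chromaffin-like nuclei, a difference of 3.96. Pde8a had 0.54 in adipocyte-like and -1.15 in X-zone or inner cortex-like nuclei, a difference of 1.69. Pde8b had 0.52 in capsule or fibroblast-like and -2.76 in T or NK-like nuclei, a difference of 3.29, where KO replicate 2 held 0 Pde8b UMIs among its T or NK-like nuclei. Pde4d had 1.36 in T or NK-like and -0.66 in macrophage-like nuclei, a difference of 2.02. Pde7b had 0.68 in adipocyte-like and -0.76 in chromaffin-like nuclei, a difference of 1.44.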

How the results depend on the processing

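The log2 fold of Pde10a in zona glomerulosa-like nuclei, the contrast it was chosen by, ran from -3.02 to -1.07 over 17 alternatives, which is a description and no support for it. It missed the threshold with no batch term (-2.56, adjusted p = 0.461), with the unassigned library taken as KO (-1.07, adjusted p = 0.999) or as WT (-2.63, adjusted p = 0.0516). Leaving out 1 library gave -2.74 to -2.24. The number of genes called in that class was 42, and was 281 with no filter on low counts, 0 with no batch term, 0 with that library taken as KO or as WT, 10 with doublets kept, 66 in the cluster with the most markers alone and 84 to 390 when 1 library was left out. The number of pairs of a member and a class that were called was 1, against 9 with no filter on low counts, 0 with no batch term, 0 with that library taken as KO or as WT, and 1 to 4 when 1 library was left out. In all nuclei 0 members were called, 1 by DESeq2, 1 with no filter, and 0 to 1 when 1 library was left out. In the interaction 0 members were called, 1 with no filter, and 0 to 1 when 1 library was left out, Pde10a in each case. Of the folds named in the text, 3 that were near 0 or uncalled changed sign in some alternatives. Pde10a in capsule or fibroblast-like nuclei (0.18) was -0.049 with that library taken as WT and -1.03 to 1.51 when 1 library was left out. Pde8b in zona fasciculata-like nuclei (0.07) was -0.041 and -0.18 to 0.28, in the same order. Pde5a in zona glomerulosa-like nuclei (0.00) was -0.0074 with DESeq2's size factors, -0.015 with DESeq2, -0.071 with no filter, -0.065 with no batch term, -0.0084 and -0.014 with that library taken as KO and as WT, -0.023 with doublets kept and -0.18 to 0.12 when 1 library was left out. The highest class stayed the same for 6 to 9 of the 9 members other than Pde2a under other clusterings and filters, and dividing by length leaves the order of classes unchanged. The class with the largest share of nuclei with a UMI was the class with the highest level for all 9 after thinning and for 6 with all UMIs. Of the 27 genes most like these members, 8 were also found by Spearman's correlation. Beyond the classes missing from an alternative, the cause of these changes was not tested. No paired analysis was possible because the labels give no replicate numbers and those printed only name libraries. A fit without 1 library has 1 residual degree of freedom. Each cluster fitted alone, and Pde2a within 1 annotation, were added after seeing the data.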
